A study of Rattus norvegicus with 12 samples.

Results

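The genes described here are the members of the circadian clock that were measured in stretched rat cardiomyocytes, together with nocturnin, a clock-linked enzyme. They are Arntl (also called Bmal1), Clock, Per1, Per2, Per3, Cry1, Nr1d1, Dbp, Bhlhe40 and Noct. They were found by symbol, and all 10 were among the 17312 gene symbols of the deposited tables. All 10 also passed the filter on low values, which 10518 symbols passed.

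The study sequenced polyadenylated RNA from cultured ventricular cardiomyocytes of newborn rats, strain Wistar, in 12 libraries. The 4 groups of 3 libraries were cells given Wnt5a siRNA and stretched, cells given control siRNA and stretched, cells given Wnt5a siRNA and not stretched, and cells given control siRNA and not stretched. Every group therefore carried an siRNA, so none shows cells free of transfection. The sample titles carry the number 8 for stretched and 0 for unstretched cells, without saying what it counts. The sources used here give neither the hour of collection nor any synchronisation of the cultures. For genes that oscillate, a change of level and a shift of phase cannot be told apart in samples of this kind. The study's title places Wnt5a and YAP, a transcriptional coactivator, in the response of heart muscle cells to mechanical load. The values are FPKM, fragments scaled by transcript length and by library size. Tests were made with limma on log2(FPKM + 1), so that a log2 change understates the change of weakly expressed genes. A gene is called where its Benjamini-Hochberg adjusted p over all 10518 genes tested was under 0.05. The labels do not say whether the 3 libraries of a group came from separate cell preparations, so the p-values rest on a spread that may be technical.

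The targeted transcript, Wnt5a, had 6.15, 4.60 and 6.81 FPKM in unstretched Wnt5a siRNA cells, against 12.3, 10.4 and 11.6 FPKM in unstretched control cells (log2 change -0.87 ± 0.14 SE, limma adjusted p = 0.00142). Under stretch it had 6.22, 5.88 and 5.56 FPKM in Wnt5a siRNA cells, against 6.52, 5.66 and 8.22 FPKM in control cells. Those libraries overlapped, and the difference was not called (log2 change -0.17 ± 0.14, limma adjusted p = 0.387). The knockdown was therefore visible at the mRNA level in unstretched cells, and not in stretched cells, whose control libraries were already lower in Wnt5a than the unstretched control libraries (log2 change -0.68 ± 0.14, limma adjusted p = 0.00139).

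Stretched control replicate 3 stood apart from the other stretched control libraries. On the second principal component of all tested genes, which held 22.9% of the variance, it lay at -3.99, against 25.15 and 24.76 for replicates 1 and 2. The values of the clock genes and the counts of each list that moved most are therefore also given without it. Cardiomyocyte markers were abundant in every library, and 9 of them summed to 10785 to 12900 FPKM in stretched Wnt5a siRNA cells, 10861 to 17203 in stretched control cells, 12875 to 13105 in unstretched Wnt5a siRNA cells and 16175 to 18589 in unstretched control cells. Markers of other cells were present too and moved with the groups. In the same order, 12 fibroblast markers summed to 10493 to 11216, 6134 to 9862, 6768 to 7060 and 4557 to 5035 FPKM. The 12 macrophage and leukocyte markers summed to 345.5 to 382, 305 to 513, 140.3 to 151 and 168 to 216 FPKM. The 10 endothelial markers summed to 48.2 to 82.7, 26.9 to 38.6, 14.7 to 32.9 and 21.4 to 35.8 FPKM, and the 10 smooth muscle and pericyte markers to 3289 to 3793, 4223 to 7123, 4413 to 6492 and 4631 to 5727 FPKM. With stretch in control cells, 9 of 11 tested fibroblast markers and 8 of 11 tested macrophage markers rose, none of either list fell at an adjusted or an unadjusted p under 0.05 in the limma fit, and 2 of 9 cardiomyocyte markers rose and 5 fell. Of the endothelial markers 1 rose and 1 fell, and of the smooth muscle and pericyte markers 2 rose and 3 fell. In this comparison 54.3% of all genes were called. With Wnt5a siRNA under stretch, 7 of the 11 fibroblast markers and 3 of 9 endothelial markers rose, 2 of 10 smooth muscle and pericyte markers rose and 5 fell, and 1 macrophage and 1 cardiomyocyte marker fell. The share of all genes called there was 27.3%. Leaving out stretched control replicate 3, 6 of the 9 cardiomyocyte markers fell in that comparison. The interaction of stretch and siRNA, called for 23.8% of all genes, was called positive for 5 endothelial, 3 fibroblast and 1 macrophage markers and negative for 3 smooth muscle markers. Of the cardiomyocyte markers it was called positive for 2 (Pln and Tnni3) and negative for 1 (Myh7). Without that replicate it was called positive for 3 endothelial, 4 fibroblast and 5 macrophage markers, and negative for 4 smooth muscle markers. The cardiomyocyte counts were then 2 positive and 2 negative. Wnt5a siRNA in unstretched cells, with all libraries, raised 6 fibroblast, 2 smooth muscle and 1 cardiomyocyte markers. It lowered 7 macrophage, 4 cardiomyocyte, 1 fibroblast and 1 endothelial markers, where 28.5% of all genes were called. Stretch with Wnt5a siRNA raised 10 macrophage, 8 fibroblast, 6 endothelial and 2 smooth muscle markers, and lowered 5 smooth muscle and 4 cardiomyocyte markers. There 16% of all genes were called. Col1a2 is listed at 0 in every library beside abundant Col1a1, which may be a failed estimate, and no other marker of these lists was at 0 throughout. The part of these cells in the clock gene results was not tested, and in bulk RNA fewer cells of a type and less RNA per cell cannot be told apart.

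In mammalian cells, ARNTL and CLOCK bind DNA as a pair at E-boxes and activate the Per, Cry, Nr1d1, Dbp and Bhlhe40 genes. PER and CRY proteins return to the nucleus and inhibit that pair, which closes the main loop. NR1D1 (REV-ERBα) represses Arntl through REV-ERB and ROR elements, DBP activates genes through D-boxes, and BHLHE40 (DEC1) represses at E-boxes. Noct encodes nocturnin, related to the CCR4 deadenylases, whose mRNA cycles strongly in mouse liver and which has been shown to dephosphorylate NADP(H). Cardiomyocytes carry their own clock, which is known for the daily timing of contractility and metabolism.

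Promoter windows of Arntl, Per2, Nr1d1, Bhlhe40 and Noct are shown, each chosen with a match to a motif searched. Dbp and Per3, also called for stretch, had windows without a match, which are not shown. RefSeq windows of 300 bases, from 250 before to 50 after a transcript's start, were at hand for 9 of the 10 members (11 windows, build GRCr8), and none for Cry1. Capitals mark the motif found, read 5′ to 3′ on the gene's own strand. The Arntl window lies at chr1:176766078-176766377 on the plus strand and holds AAAGTAGGT at -56 and at -20 from the start. The Per2 window lies at chr9:99496944-99497243 on the minus strand, with a D-box (TTATGTAA) at -192 and an E′-box (CACGTT) at -62. The downstream of the 2 Nr1d1 windows lies at chr10:84229405-84229704 on the minus strand, with an E-box (CACGTG) at -191. The Bhlhe40 window lies at chr4:143174200-143174499 on the plus strand, with an E-box at -220. The Noct window lies at chr2:137421824-137422123 on the plus strand and holds, at -64, the reverse complement of GGAATG, the core bound by TEAD factors, the DNA-binding partners of YAP.
Arntl: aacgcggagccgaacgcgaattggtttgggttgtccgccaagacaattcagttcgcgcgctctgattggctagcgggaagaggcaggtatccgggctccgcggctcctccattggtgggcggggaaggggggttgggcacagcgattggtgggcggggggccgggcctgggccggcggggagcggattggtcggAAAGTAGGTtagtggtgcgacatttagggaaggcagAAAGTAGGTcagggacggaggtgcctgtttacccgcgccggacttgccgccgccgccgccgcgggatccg
Per2: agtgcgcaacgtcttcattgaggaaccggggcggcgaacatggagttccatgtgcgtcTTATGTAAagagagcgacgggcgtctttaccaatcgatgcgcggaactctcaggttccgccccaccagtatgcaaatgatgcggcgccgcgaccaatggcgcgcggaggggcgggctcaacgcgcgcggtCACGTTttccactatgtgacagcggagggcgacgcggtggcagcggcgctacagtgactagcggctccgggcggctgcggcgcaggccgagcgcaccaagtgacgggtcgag
Nr1d1, downstream window: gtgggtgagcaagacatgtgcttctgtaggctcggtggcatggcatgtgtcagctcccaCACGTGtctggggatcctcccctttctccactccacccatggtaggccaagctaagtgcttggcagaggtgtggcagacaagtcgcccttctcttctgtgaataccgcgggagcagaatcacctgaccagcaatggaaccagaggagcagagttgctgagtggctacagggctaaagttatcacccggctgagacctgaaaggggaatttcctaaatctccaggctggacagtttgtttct
Bhlhe40: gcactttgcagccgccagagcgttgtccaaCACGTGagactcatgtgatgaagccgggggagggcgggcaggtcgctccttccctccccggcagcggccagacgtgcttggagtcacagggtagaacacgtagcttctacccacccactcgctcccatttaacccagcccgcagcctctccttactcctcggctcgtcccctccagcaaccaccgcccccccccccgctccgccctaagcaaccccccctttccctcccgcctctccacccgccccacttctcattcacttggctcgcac
Noct: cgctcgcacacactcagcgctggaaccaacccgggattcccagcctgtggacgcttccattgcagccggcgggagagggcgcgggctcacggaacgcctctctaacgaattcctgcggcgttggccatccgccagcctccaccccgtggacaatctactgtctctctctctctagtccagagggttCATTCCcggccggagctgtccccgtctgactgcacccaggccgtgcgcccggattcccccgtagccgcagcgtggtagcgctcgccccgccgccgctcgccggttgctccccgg

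The share of all 33469 RefSeq rat windows of this length that hold a match, on either strand, was 6.42% for CACGTG, 4.83% for CACGTT, 0.89% for TTATGTAA, 14.19% for GGAATG and 0.2% for AAAGTAGGT. The letters AAAGTAGGT were chosen after the Arntl window had been read, and Arntl's was the only window (1 of 33469) with 2 or more copies. The upstream Nr1d1 window also held the E′-box, at -174 on the opposite strand, and the Per1 window held GGAATG at -101 on the opposite strand. No window of a member held the cAMP response element TGACGTCA, which 1.83% of all windows hold. The windows of Clock, Per3 and Dbp held none of the motifs searched. A match describes letters in a window and shows no binding.

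With control siRNA, stretch changed clock genes in a share near that of all genes tested. Of the 10 genes, 6 were called: Arntl, Nr1d1, Bhlhe40 and Noct rose, and Per3 and Dbp fell. The background was high, since 54.3% of all genes tested were called in this comparison, 27.5% higher and 26.8% lower. The libraries of the groups did not overlap for 6 of the 10, against 58% of all genes. The median change of the 10 was 0.18, against 0.01 over all genes tested. The 6 calls were the same in number without stretched control replicate 3.

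Among the activators, Arntl had 19.4, 17.9 and 16.7 FPKM in stretched control cells, against 8.11, 7.93 and 7.43 FPKM in unstretched control cells. The groups lay far apart, and the ratio of means was 2.31 (log2 change 1.11 ± 0.09 SE, limma adjusted p = 2.95e-06). Only 0.69% of all genes had a smaller p in this comparison. Its partner Clock had 16.9, 16.9 and 14.7 FPKM in stretched control cells, against 15.8, 14.8 and 14.9 FPKM in unstretched control cells, and those libraries overlapped (log2 change 0.09 ± 0.08, limma adjusted p = 0.365, 95% interval -0.08 to 0.25). Arntl therefore lay above Clock in the stretched control mean, 18.0 ± 1.33 against 16.2 ± 1.28 FPKM (SD, n = 3), though their libraries overlapped, whereas in unstretched control cells Arntl was at 7.82 ± 0.351 and Clock at 15.1 ± 0.546 FPKM.

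**Figure D1:**
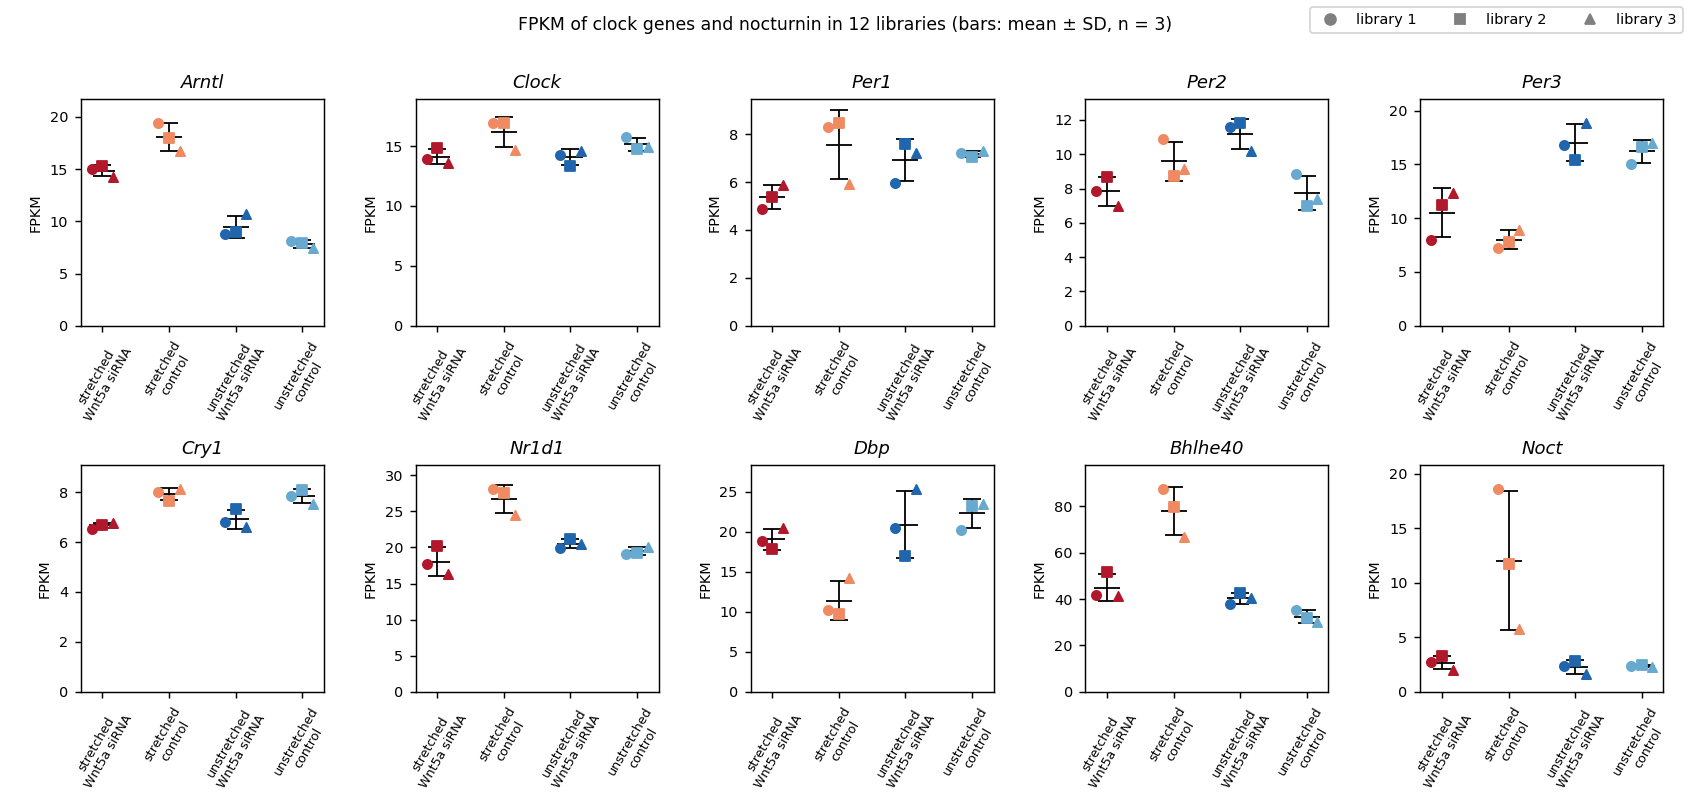
FPKM of the 10 genes in each of the 12 libraries, on a linear axis from 0, with the 4 groups side by side; points are libraries, and bars and caps give the mean and SD of 3. Noct is between 1.60 and 3.29 FPKM in every library outside the stretched control group and at 18.6, 11.7 and 5.81 FPKM inside it, and Arntl is higher in both stretched groups than in either unstretched group.

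Among the repressors of the main loop, Per3 was the 1 called for stretch. It had 7.22, 7.82 and 8.94 FPKM in stretched control cells, against 15.0, 16.7 and 17.0 FPKM in unstretched control cells. Every stretched library lay below every unstretched one, and the stretched mean was 49.2% of the unstretched mean (log2 change -0.94 ± 0.14, limma adjusted p = 1.17e-04). Per2 had 10.9, 8.74 and 9.11 FPKM in stretched control cells, against 8.86, 6.97 and 7.41 FPKM in unstretched control cells, and was not called (log2 change 0.28 ± 0.11, limma adjusted p = 0.0572). Per1 and Cry1 showed small differences with overlapping libraries (log2 changes 0.05 ± 0.13 and 0.02 ± 0.08, limma adjusted p = 0.763 and 0.865). The 3 Per genes thus lay at -0.94, 0.05 and 0.28 on the log2 scale, with the 95% interval of Per3 (-1.24 to -0.64) apart from those of Per1 (-0.23 to 0.33) and Per2 (0.03 to 0.52). With every library scaled to the same sum, which moved the median of all genes to -0.19, Per1, Cry1 and Clock turned to small negative values, none of them called.

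The E-box targets did not move together. Nr1d1, the repressor of Arntl, had 28.1, 27.5 and 24.5 FPKM in stretched control cells, against 19.1, 19.3 and 20.1 FPKM in unstretched control cells (log2 change 0.43 ± 0.08, limma adjusted p = 7.94e-04). Dbp, the D-box activator, had 10.2, 9.72 and 14.3 FPKM in stretched control cells, against 20.2, 23.2 and 23.5 FPKM in unstretched control cells (log2 change -0.92 ± 0.15, limma adjusted p = 2.34e-04). Both separated the groups fully, in opposite directions. The Nr1d1 gene overlaps Thra, the thyroid hormone receptor α gene, on the opposite strand, and the sources used here do not say whether counting took the strand into account. Thra, named for this overlap, differed by -0.76 ± 0.10 (limma adjusted p = 7.31e-05), the other way from Nr1d1. Whether reads of Thra entered the Nr1d1 values was not tested. Bhlhe40, the most abundant of the 10, had 87.3, 79.7 and 66.6 FPKM in stretched control cells, against 35.4, 31.9 and 30.0 FPKM in unstretched control cells, a ratio of means of 2.40 (log2 change 1.23 ± 0.11, limma adjusted p = 4.51e-06).

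Noct showed the largest change of the 10. It had 18.6, 11.7 and 5.81 FPKM in stretched control cells, against 2.34, 2.46 and 2.31 FPKM in unstretched control cells. The stretched libraries were all higher, but they spread over a wide range, with replicate 3 the lowest. The ratio of means was 5.08 (log2 change 1.82 ± 0.29, limma adjusted p = 2.35e-04). Without stretched control replicate 3 the Noct change was 2.23, and that of Dbp was -1.08, against -0.92 with it.

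Under stretch, libraries labelled Wnt5a siRNA were set against those labelled control siRNA. Wnt5a mRNA itself averaged 5.89 and 6.80 FPKM in these groups, with overlapping libraries, so the comparison is one of siRNA labels and not of measured Wnt5a levels. Of the 10 genes, 7 were called: Dbp was higher in Wnt5a siRNA cells, and Arntl, Per1, Cry1, Nr1d1, Bhlhe40 and Noct were lower. The background was 27.3% of all genes called, 13.2% higher and 14.2% lower. With every library scaled to the same sum, 2 of the 10 were called higher and 3 lower. Libraries did not overlap for 8 of the 10, against 37.6% of all genes. The median change of the 10 was -0.26, against 0.00 over all genes. This comparison uses the same stretched control libraries as the last, so a low or high value there enters both with opposite sign, and the genes' values are given in each without counting agreement.

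The 4 genes with the largest differences kept their calls in every alternative run. Noct had 2.70, 3.29 and 2.05 FPKM in stretched Wnt5a siRNA cells, against 18.6, 11.7 and 5.81 FPKM in stretched control cells. The mean was 22.3% of control (log2 change -1.71 ± 0.29, limma adjusted p = 0.00305), and lay close to the 2.27 ± 0.637 FPKM of unstretched Wnt5a siRNA cells (SD, n = 3). Bhlhe40 had 41.7, 51.5 and 41.5 FPKM in stretched Wnt5a siRNA cells, against 87.3, 79.7 and 66.6 FPKM in stretched control cells (log2 change -0.78 ± 0.11, limma adjusted p = 0.00161). Nr1d1 had 17.7, 20.1 and 16.3 FPKM in stretched Wnt5a siRNA cells, against 28.1, 27.5 and 24.5 FPKM in stretched control cells (log2 change -0.54 ± 0.08, limma adjusted p = 0.00193). In all 3 the groups were fully separate, with the Wnt5a siRNA libraries lower. Dbp lay the other way, at 18.9, 17.8 and 20.4 FPKM in stretched Wnt5a siRNA cells, against 10.2, 9.72 and 14.3 FPKM in stretched control cells (log2 change 0.71 ± 0.15, limma adjusted p = 0.00684).

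The remaining differences were smaller. Arntl had 15.0, 15.3 and 14.2 FPKM in stretched Wnt5a siRNA cells, against 19.4, 17.9 and 16.7 FPKM in stretched control cells (log2 change -0.26 ± 0.09, limma adjusted p = 0.0445). Per1 averaged 5.38 ± 0.50 FPKM in stretched Wnt5a siRNA cells and 7.56 ± 1.44 FPKM in stretched control cells (log2 change -0.41 ± 0.13, limma adjusted p = 0.0333). Cry1 averaged 6.66 ± 0.117 and 7.93 ± 0.241 FPKM in the same groups (log2 change -0.22 ± 0.08, limma adjusted p = 0.0491). These 3 calls stood near the threshold: Arntl and Cry1 kept theirs in 4 of 14 alternatives each, and Per1 in 6 of 14. Per2, Per3 and Clock were not called, at log2 changes of -0.26 ± 0.11, 0.34 ± 0.14 and -0.18 ± 0.08 (limma adjusted p = 0.109, 0.083 and 0.0986). Without stretched control replicate 3 there were 8 calls: Cry1 was no longer called (-0.21, limma adjusted p = 0.0582), and Clock (-0.24, 0.0163) and Per3 (0.41, 0.0366) were. Without that library 4668 of all genes were called in place of 2875. Without stretched control replicate 1 or 2, or stretched Wnt5a siRNA replicate 2 or 3, 4 of the 10 were called.

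**Figure D2:**
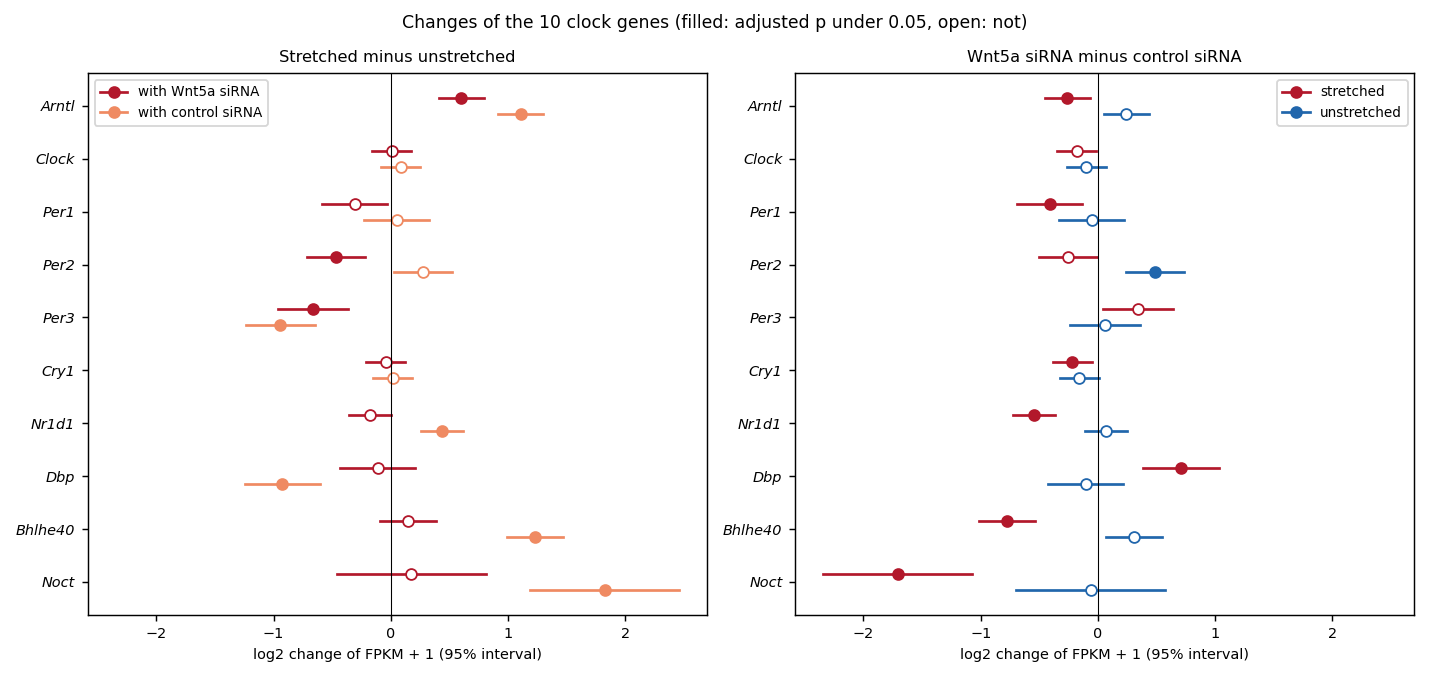
Log2 change of FPKM + 1 with its 95% interval for each of the 10 genes, for stretch under either siRNA on the left and for Wnt5a siRNA with or without stretch on the right, filled where the limma call was made and open where not. Noct, Bhlhe40 and Nr1d1 lie above 0 for stretch with control siRNA and below 0 for Wnt5a siRNA under stretch, Dbp the reverse, and Per2 is the gene called for Wnt5a siRNA in unstretched cells.

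In unstretched cells, Wnt5a siRNA changed Per2. It had 11.6, 11.8 and 10.2 FPKM in unstretched Wnt5a siRNA cells, against 8.86, 6.97 and 7.41 FPKM in unstretched control cells, with no overlap (log2 change 0.48 ± 0.11, limma adjusted p = 0.00874). It was the 1 call among the 10 genes, where 28.5% of all genes were called, 14.6% higher and 13.9% lower. Libraries did not overlap for 5 of the 10, against 49.4% of all genes, and the median change was 0.00. Bhlhe40 averaged 40.3 ± 2.53 FPKM in unstretched Wnt5a siRNA cells and 32.4 ± 2.77 FPKM in unstretched control cells (log2 change 0.30 ± 0.11, limma adjusted p = 0.0559). Arntl averaged 9.47 ± 1.07 and 7.82 ± 0.351 FPKM in the same groups (log2 change 0.24 ± 0.09, limma adjusted p = 0.0572). Neither was called, and both were higher in all 3 knockdown libraries. Noct had 2.35, 2.86 and 1.60 FPKM in unstretched Wnt5a siRNA cells, against 2.34, 2.46 and 2.31 FPKM in unstretched control cells (log2 change -0.06 ± 0.29, 95% interval -0.70 to 0.57, limma adjusted p = 0.897).

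In cells with Wnt5a siRNA, stretch changed 3 of the 10 genes, where 16% of all genes were called, 8.44% higher and 7.59% lower, and libraries did not overlap for 4 of the 10, against 40.7% of all genes. Arntl had 15.0, 15.3 and 14.2 FPKM in stretched Wnt5a siRNA cells, against 8.77, 8.94 and 10.7 FPKM in unstretched Wnt5a siRNA cells (log2 change 0.60 ± 0.09, limma adjusted p = 0.00118). Per3 had 7.94, 11.2 and 12.4 FPKM in stretched Wnt5a siRNA cells, against 16.8, 15.4 and 18.8 FPKM in unstretched Wnt5a siRNA cells (log2 change -0.66 ± 0.14, limma adjusted p = 0.0069). Arntl thus rose and Per3 fell with stretch under either siRNA, each time with fully separate libraries. Per2 had 7.84, 8.70 and 6.99 FPKM in stretched Wnt5a siRNA cells, against 11.6, 11.8 and 10.2 FPKM in unstretched Wnt5a siRNA cells (log2 change -0.47 ± 0.11, limma adjusted p = 0.016). The Per2 call was lost without any of stretched Wnt5a siRNA replicates 1 and 3 or unstretched Wnt5a siRNA replicates 1 and 2 (limma adjusted p from 0.055 to 0.0629). Noct (0.18 ± 0.29), Bhlhe40 (0.15 ± 0.11), Nr1d1 (-0.18 ± 0.08) and Dbp (-0.11 ± 0.15) were not called, with limma adjusted p = 0.728, 0.395, 0.165 and 0.655. The 95% interval for Noct, -0.46 to 0.81, lay below that of its change with control siRNA, 1.19 to 2.46.

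The interaction term, the stretch change with Wnt5a siRNA minus the stretch change with control siRNA, tested that difference directly. It was called for 6 of the 10 genes, against 23.8% of all genes tested (11.7% positive and 12.1% negative). The term was -1.65 ± 0.41 for Noct, -1.08 ± 0.16 for Bhlhe40 and -0.61 ± 0.12 for Nr1d1 (limma adjusted p = 0.0148, 0.00169 and 0.00448). For these 3 the stretch change lay lower with Wnt5a siRNA than with control siRNA, where each had risen. The term was 0.81 ± 0.21 for Dbp, which fell with stretch in control cells and was not called with Wnt5a siRNA, and -0.51 ± 0.13 for Arntl, whose rise was smaller (limma adjusted p = 0.0167 and 0.0141). For Per2 it was -0.74 ± 0.16 (limma adjusted p = 0.00776): its 2 stretch changes had opposite signs, and the called ones were the fall with Wnt5a siRNA and the higher unstretched level in those cells. Each of these 6 calls was made in all 19 alternatives. The term for Per3, 0.28 ± 0.19, was not called (limma adjusted p = 0.318), nor were those for Clock, Per1 and Cry1 (-0.08 ± 0.11, -0.36 ± 0.18 and -0.06 ± 0.11, limma adjusted p = 0.629, 0.168 and 0.716). Without stretched control replicate 3 the Per1 term was called as well (-0.51, limma adjusted p = 0.0172). An exact permutation test over 3 against 3 libraries cannot go below p = 0.1, which is what it gave for every pair of groups without overlap.

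By level, Bhlhe40 stood first in each of the 4 groups, above the next gene with no overlap between libraries. Noct stood last in stretched Wnt5a siRNA, unstretched Wnt5a siRNA and unstretched control cells, and at place 5 of 10 in stretched control cells. In the stretched control group the order was Bhlhe40, Nr1d1, Arntl, Clock, Noct, Dbp, Per2, Per3, Cry1 and Per1, and from Arntl down each gene's libraries overlapped those of the next. In unstretched control cells the order was Bhlhe40, Dbp, Nr1d1, Per3 and Clock, then Cry1, Arntl, Per2 and Per1, each overlapping the next, and Noct. FPKM are per length, so these levels can be set beside each other, within the limits of the gene models used.

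The ratio of a repressor or output gene to Arntl in the same library does not depend on the library's scaling. The log2 ratio of Dbp to Arntl was 0.33, 0.22 and 0.52 in stretched Wnt5a siRNA cells and -0.92, -0.88 and -0.23 in stretched control cells. It was 1.22, 0.92 and 1.24 in unstretched Wnt5a siRNA cells and 1.32, 1.55 and 1.66 in unstretched control cells. The groups were ordered, with the stretched control group lowest and the unstretched control group highest, and no overlap between any of them. The log2 ratio of Per3 to Arntl was below 0 in all 6 stretched libraries, from -1.43 to -0.20, and above 0 in all 6 unstretched libraries, from 0.78 to 1.195. The log2 ratio of Nr1d1 to Arntl was 0.24, 0.40 and 0.19 in stretched Wnt5a siRNA cells and 0.53, 0.62 and 0.55 in stretched control cells, against 0.94 to 1.43 over the unstretched libraries. Although Nr1d1 rose with stretch in control cells, it rose less than Arntl did.

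**Figure D3:**
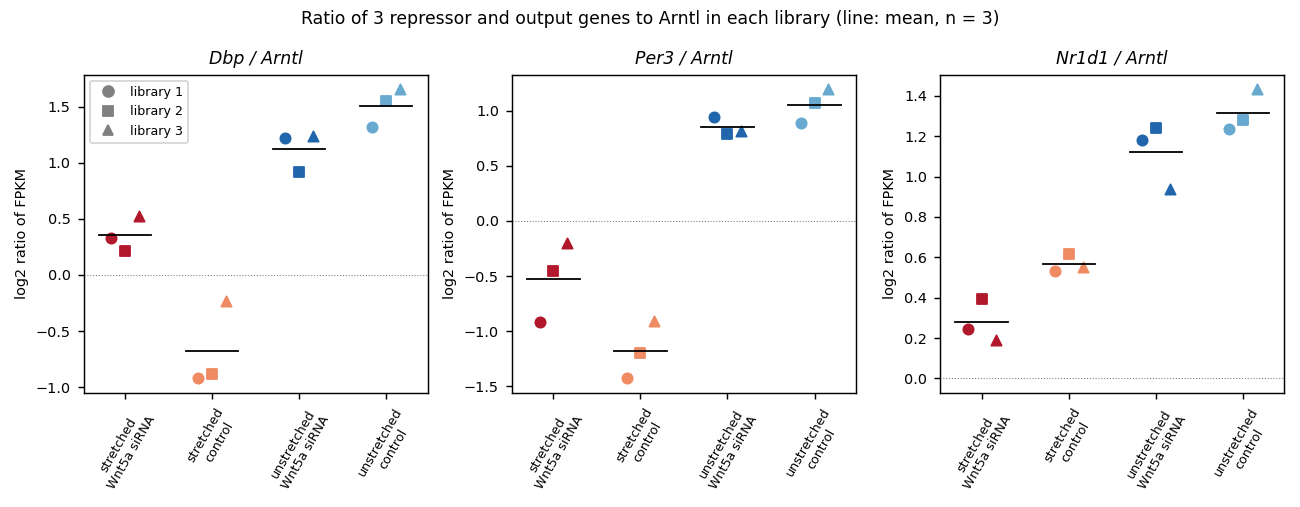
Log2 ratio of Dbp, Per3 and Nr1d1 to Arntl in each of the 12 libraries by group, with a line at the mean of 3. Every stretched library lies below every unstretched library in each ratio, and for Dbp the stretched control group lies below 0 while the stretched Wnt5a siRNA group lies above it.

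Over the 12 libraries, Pearson's r between log2 values was 0.91 for Bhlhe40 and Noct, 0.89 for Nr1d1 and Noct and 0.88 for Arntl and Bhlhe40. It was 0.83 for Per3 and Dbp, and -0.95 for Dbp and Noct, -0.94 for Dbp and Bhlhe40 and -0.90 for Arntl and Per3. These points share 4 group means and are given as a description. Among about 2920 other genes with a range of at least 1 on the log2 scale, the pattern most like that of Noct was that of Stk40 (r = 0.99), followed by Csrnp1 (0.99) and Pard6b (0.98). Bhlhe40 was most like PVR (0.99), Fam131b (0.99) and Plk2 (0.98), and Nr1d1 was most like Junb (0.97), Egln3 (0.97) and Lmcd1 (0.94). Dbp was most like Trim2, Bmf and Ppfibp2 (0.98 each), Arntl was most like Slc39a10 (0.98), Layn and Slc39a6 (0.97 each), and Per3 was most like Myh7b (0.98), Khdrbs3 and Lifr (0.97 each). Per2 was most like Mcam (0.91), Synm and Cspg4 (0.90 each), and Cspg4 is also in the list of smooth muscle and pericyte markers. Clock was most like Lrrc2 (0.95), Ifnlr1 (0.94) and Serinc2 (0.93). Per1 was most like Nkx2-5 (0.90), Apba1 and Alpk3 (0.88 each), and Cry1 was most like Pdlim4, Lgals9 (0.90 each) and Gfod1 (0.89).

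Other genes of the clock were taken from a list of 24, of which 17 were among the symbols and 16 passed the filter. Stretch with control siRNA raised 5 of the 16 and lowered 2, with a median change of 0.02. Of all genes, 27.5% were called higher and 26.8% lower in this comparison. Ciart, which encodes a repressor of the ARNTL and CLOCK pair, had 4.94 ± 0.465 FPKM in stretched control cells and 1.80 ± 0.0651 FPKM in unstretched control cells (log2 change 1.08 ± 0.10, limma adjusted p = 4.68e-06). Usp2, which encodes a deubiquitinase that is a clock output, had 17.0 ± 3.22 and 35.4 ± 4.42 FPKM in the same groups (log2 change -1.02 ± 0.13, limma adjusted p = 3.43e-05). Arntl2, the paralog of Arntl, rose by 0.95 ± 0.17 (limma adjusted p = 5.57e-04), and Wdr5, a subunit of histone methyltransferase complexes, rose by 0.42 ± 0.08 (limma adjusted p = 6.93e-04). With every library scaled to the same sum, 3 were higher and 6 lower, with a median of -0.20 that matched the -0.19 of all genes.

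Under stretch, Wnt5a siRNA lowered 4 of these 16 genes and raised none in the limma fit (2 were higher at an unadjusted p under 0.05), with a median of -0.12. Of all genes, 13.2% were called higher and 14.2% lower. Ciart had 2.88 ± 0.10 FPKM in stretched Wnt5a siRNA cells and 4.94 ± 0.465 FPKM in stretched control cells (log2 change -0.61 ± 0.10, limma adjusted p = 0.00239). Nfil3, a repressor at D-boxes, Wdr5 and Csnk1d, a kinase of PER proteins, were lower too (log2 changes -0.72 ± 0.19, -0.29 ± 0.08 and -0.24 ± 0.07, limma adjusted p = 0.0164, 0.0206 and 0.0282). Of 14 alternatives, Nfil3 kept its call in 9, Wdr5 in 8 and Csnk1d in 6, and with every library scaled to the same sum 2 of the 16 were higher and 2 lower. Without stretched control replicate 3 the counts were 1 higher and 5 lower.

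In unstretched cells, Wnt5a siRNA raised 3 of the 16 and lowered 1, with a median of 0.09. Of all genes, 14.6% were called higher and 13.9% lower. Ciart had 3.62 ± 0.221 FPKM in unstretched Wnt5a siRNA cells and 1.80 ± 0.0651 FPKM in unstretched control cells (log2 change 0.72 ± 0.10, limma adjusted p = 6.93e-04). Arntl2 rose by 0.84 ± 0.17 and Timeless, which encodes a replication fork protein related to the fly clock protein, by 0.66 ± 0.13 (limma adjusted p = 0.00451 and 0.00388). Usp2 fell by 0.69 on the log2 scale (SE 0.13, limma adjusted p = 0.00255). With Wnt5a siRNA, stretch lowered Cry2, the paralog of Cry1, and raised none at either an adjusted or an unadjusted p under 0.05 in the limma fit (Cry2 log2 change -0.22 ± 0.07, limma adjusted p = 0.0489), a call that 8 of 14 alternatives lost. The interaction was called for 6 of the 16: it was -1.33 ± 0.14 for Ciart, -1.01 ± 0.24 for Arntl2, 0.77 ± 0.18 for Usp2 and -0.35 ± 0.10 for Csnk1d (limma adjusted p = 4.65e-04, 0.0124, 0.0103 and 0.0283), and Wdr5 and Nfil3 were the other two. The Csnk1d term kept its call in 8 of 19 alternatives, and those of Ciart, Arntl2 and Usp2 in all that were run. The terms of Wdr5 (-0.38 ± 0.11) and Nfil3 (-0.80 ± 0.27) had limma adjusted p = 0.0295 and 0.0454. With every library scaled to the same sum, the interaction was called positive for 1 of the 16 and negative for 2. Among all genes tested, the interaction was called for 23.8% and stretch with Wnt5a siRNA for 16%.

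**Figure D4:**
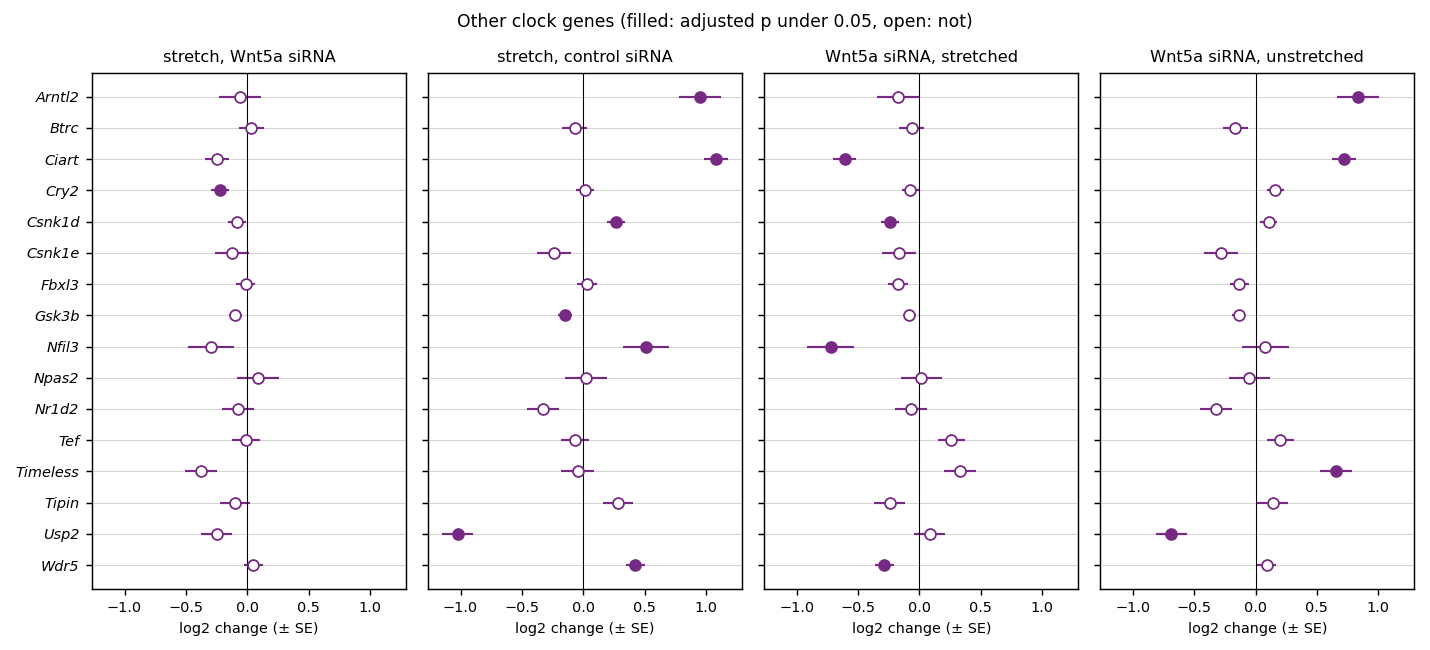
Log2 change of FPKM + 1 for the 16 tested genes of the wider clock list with its SE, in 4 panels, one per comparison of groups, filled where called. Ciart is at 1.08 for stretch of control cells and at -0.61 in the panel of Wnt5a siRNA under stretch, and Usp2 is at -1.02 for stretch and 0.08, not called, for Wnt5a siRNA under stretch.

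Of 15 tested clock output genes named in heart or liver studies, 7 rose and 6 fell with stretch under control siRNA. Those with the smallest p were Adrb1, the β1-adrenergic receptor (log2 change -1.35 ± 0.09, limma adjusted p = 9.97e-07), Kcnh2, a potassium channel (-1.58 ± 0.11, 1.39e-06), Pdk4, an inhibitor of pyruvate oxidation (-1.69 ± 0.17, 8.59e-06) and Tfrc, the transferrin receptor (0.83 ± 0.10, 3.38e-05). With every library scaled to the same sum the counts were 3 higher and 8 lower. Under stretch, Wnt5a siRNA raised 4 and lowered 5 of them, with Kcnh2 higher (0.88 ± 0.11, limma adjusted p = 0.00137) and Klf10 lower (-0.45 ± 0.07, limma adjusted p = 0.00263). In unstretched cells it raised 1 and lowered 5, among them Pdk4 (-1.26 ± 0.17, limma adjusted p = 6.92e-04) and Klf10 (-0.33 ± 0.07, limma adjusted p = 0.00731). For Klf10 the interaction was not called (limma adjusted p = 0.418). The interaction was called for 8, 5 higher and 3 lower, and for 5 higher and 5 lower without stretched control replicate 3. With Wnt5a siRNA, stretch raised 1 and lowered 4. Without that replicate the counts under stretch were 5 higher and 6 lower, and in unstretched cells, where its loss changes only the shared estimate of the spread, 3 higher and 6 lower. With all libraries, stretch was called for 54.3% of all genes with control siRNA and for 16% with Wnt5a siRNA. The shares for Wnt5a siRNA were 27.3% under stretch and 28.5% without, and 23.8% of all genes were called for the interaction.

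Cyclic AMP and glucocorticoids are known as signals that reset clocks, and genes that respond to them were examined as lists. The list for cAMP held genes that respond to it together with CREB (Creb1) and its coactivators (Crtc1, Crtc2), which carry the signal. Of its 15 tested genes, 7 rose and 4 fell with stretch under control siRNA, and Wnt5a siRNA under stretch raised 2 and lowered 8. Those with the smallest p for stretch went both ways. Ppargc1a, a coactivator of mitochondrial genes, fell (log2 change -1.31 ± 0.13, limma adjusted p = 8.14e-06), and Sik1, a kinase that inhibits the CREB coactivators, rose (1.499 ± 0.19, limma adjusted p = 4.65e-05). Dusp1, a MAP kinase phosphatase (0.74 ± 0.13), and Nr4a3, an orphan nuclear receptor (0.87 ± 0.15), rose as well (limma adjusted p = 4.02e-04 and 4.45e-04). With Wnt5a siRNA under stretch, Dusp1 (-1.06 ± 0.13), Fos (-0.73 ± 0.12) and Nr4a1 (-0.75 ± 0.13) were lower and Ppargc1a (0.72 ± 0.13) was higher (limma adjusted p = 0.00132, 0.00275, 0.00305 and 0.00368). In unstretched cells Wnt5a siRNA raised 2 and lowered 5. The 5 included Fos (-0.575 ± 0.12), Nr4a1 (-0.57 ± 0.13), Ppargc1a (-0.44 ± 0.13) and Dusp1 (-0.36 ± 0.13), with limma adjusted p = 0.00518, 0.00676, 0.024 and 0.0493. Of these, Fos and Nr4a1 were not called for the interaction (limma adjusted p = 0.545 and 0.519), and Ppargc1a and Dusp1 were (0.00221 and 0.0169). Stretch with Wnt5a siRNA gave no call among the 15 in the limma fit, where 1 was higher and 1 lower at an unadjusted p under 0.05. The interaction was called for 2 higher and 3 lower, and for 2 higher and 7 lower without stretched control replicate 3. With all libraries, 23.8% of all genes were called for the interaction, 54.3% for stretch with control siRNA and 16% for stretch with Wnt5a siRNA. For Wnt5a siRNA the shares were 27.3% under stretch and 28.5% without stretch.

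Of 14 tested glucocorticoid response genes, 3 rose and 3 fell with stretch under control siRNA. Pdk4 had the smallest p and fell, with the values given above, and Sgk1, a kinase, rose (0.94 ± 0.10, limma adjusted p = 1.08e-05). Dusp1 rose, and Zbtb16, a zinc finger repressor, fell (-0.92 ± 0.16, limma adjusted p = 4.64e-04). Wnt5a siRNA raised 2 and lowered 6 of them under stretch, and raised 1 and lowered 6 without stretch. Stretch with Wnt5a siRNA raised 2 and lowered none in the limma fit, where 3 were lower at an unadjusted p under 0.05. With every library scaled to the same sum, Wnt5a siRNA under stretch raised 2 and lowered 3, and stretch with Wnt5a siRNA raised 2 and lowered 3. The interaction was called for 3 higher and 2 lower, and for 4 higher and 3 lower without stretched control replicate 3. Pdk4, Per1 and Dusp1 each stand in more than one of these lists or among the 10 clock genes. Among all genes, with all libraries, 54.3% were called for stretch with control siRNA and 16% for stretch with Wnt5a siRNA. For Wnt5a siRNA the shares were 27.3% under stretch and 28.5% in unstretched cells, and for the interaction 23.8%.

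Deadenylases are the enzymes that shorten poly(A) tails, and nocturnin is related to them. The list held such enzymes together with partner proteins that are not themselves deadenylases (Cnot1, Cnot2, Cnot3, Btg1, Btg2, Tob1 and Tob2). Of its 16 tested genes, 2 rose and 4 fell with stretch under control siRNA, the largest change being that of Pan2 (log2 change -0.86 ± 0.14, limma adjusted p = 2.2e-04). Wnt5a siRNA raised 1 and lowered 2 under stretch, and raised 2 and lowered 3 without stretch. None was called in the limma fit for stretch with Wnt5a siRNA or for the interaction. At an unadjusted p under 0.05, 1 was lower for stretch with Wnt5a siRNA, and the interaction was positive for 3 and negative for 2. With every library scaled to the same sum, stretch under control siRNA lowered 10 and raised none, and Wnt5a siRNA under stretch raised 4 and lowered 1. Leaving out stretched control replicate 3, Wnt5a siRNA under stretch raised 3 and lowered 4, and the interaction was called for 1 higher and 2 lower. With all libraries, stretch with control siRNA was called for 54.3% of all genes, and Wnt5a siRNA for 27.3% under stretch and 28.5% without. The shares were 16% for stretch with Wnt5a siRNA and 23.8% for the interaction.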

How the data were processed

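RNA was measured in 12 libraries, 3 in each of 4 groups taken from the treatment label. A miRNeasy kit gave the total RNA and a TruSeq Stranded mRNA kit the libraries, per the labels' protocols. Per the submitters' processing notes, TopHat2 2.1.1, Bowtie2 and Cuffdiff 2.2.1 were used with build rn6; the sources used here name neither the annotation nor the strand setting. The authors deposited FPKM per gene symbol and library, with no counts, so the depth in fragments is unknown. The low values of 1375 of 1523 genes (90.3%) were whole multiples of a common step within 0.05, and the value of 1 fragment differed by up to 1.204 times between libraries, so depths were similar. Sums of FPKM over all genes ranged from 575161 to 709021.

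All 12 libraries were fitted together as 4 group means with limma 3.58.1 (R 4.3.3; moderated tests with an intensity trend) on log2(FPKM + 1), with 8 residual degrees of freedom. Genes with at least 1 FPKM in at least 3 libraries were tested (10518 of 17312 symbols, of which 13770 were above 0 somewhere). Tests were 2-sided, p-values were adjusted by Benjamini-Hochberg in each of 5 comparisons, and a call is an adjusted p under 0.05. The fit was tested on simulated data. The clock genes and the 10 gene lists were chosen with earlier results of these data known, so no p-value was adjusted over a list alone. The text names all 10 clock genes, Wnt5a as the target, 1 to 4 of the called genes with the smallest adjusted p from a list in a comparison it describes, and the 3 genes most like a member by Pearson's r. In places a list gene is also followed into other comparisons. Thra was named for its overlap with Nr1d1. Promoters were searched on both strands. Alternatives changed the pseudocount (0.1), the filter (none, or 5 FPKM), the scaling (median ratio, quantile, or TPM, every library set to the same sum), the libraries fitted (only the 2 groups compared, or without each library in turn) and the replicate number as a block. Deviations of same-numbered libraries from their group means correlated at 0.143 to 0.242 for stretch with Wnt5a siRNA. They correlated at 0.095 to 0.231 for Wnt5a siRNA under stretch and at 0.058 to 0.186 in unstretched cells. For stretch with control siRNA the correlations were 0.249, 0.059 and -0.019.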

Additional observations from a re-analysis of the deposited data

Results flagged for a closer look

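The effect of stretch differed between Wnt5a siRNA cells and control siRNA cells for 6 of the 10 clock genes, by a test of the difference itself (the interaction term of the limma fit, stretch change with Wnt5a siRNA minus stretch change with control siRNA). Of all genes tested, 23.8% were called for this term. The term was -1.65 for Noct, -1.08 for Bhlhe40, -0.74 for Per2, -0.61 for Nr1d1, -0.51 for Arntl and 0.81 for Dbp. For Arntl the stretch change was positive under both siRNAs, at 0.60 with Wnt5a siRNA and 1.11 with control siRNA. For Per2 it was -0.47 with Wnt5a siRNA and 0.28, not called, with control siRNA. For Noct, Bhlhe40, Nr1d1 and Dbp it was called with control siRNA and not with Wnt5a siRNA. The markers of other cell types that differed between the groups, given in the results above, were not entered in the fit, and their part in these terms was not tested. Dixon's test for outlying samples was not run on these groups of 3 libraries.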

How the results depend on the processing

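Of the alternative values of the 10 genes, 187 of 190 kept their direction and side of the threshold for the interaction. The same held for 130 of 140 in each of the stretch comparisons and in unstretched cells, and for 107 of 140 for Wnt5a siRNA under stretch; the cause of the changes was not tested. For Wnt5a siRNA under stretch, 4 of the 10 were called with no filter on low values and with only the groups compared (where 1208 of all genes were called), in place of 7. For Wnt5a siRNA in unstretched cells, 2 were called in place of 1 with a filter at 5 FPKM, quantile normalization, TPM scaling, the replicate block and only the groups compared. For stretch with Wnt5a siRNA, TPM scaling gave 5 calls in place of 3. Leaving out each library in turn gave 4 to 8 calls and 1102 to 4668 genes for Wnt5a siRNA under stretch, 1 to 2 calls and 1774 to 2529 genes in unstretched cells, 2 to 3 calls and 849 to 1289 genes for stretch with Wnt5a siRNA, 6 to 7 calls and 1574 to 3638 genes for the interaction, and 6 to 7 calls and 4830 to 6035 genes for stretch in control cells. TPM scaling moved the median of all genes by -0.19 for stretch in control cells, 0.10 for Wnt5a siRNA under stretch and -0.12 for stretch with Wnt5a siRNA, and the genes called higher and lower with control siRNA to 1451 and 4493, against 2889 and 2822. It turned Clock (-0.13), Per1 (-0.15) and Cry1 (-0.19) negative for stretch with control siRNA and Clock (-0.11) for stretch with Wnt5a siRNA, and the interaction positive for Clock (0.02) and Cry1 (0.034), none of them called. It also gave 2187 higher and 811 lower for Wnt5a siRNA under stretch, against 1386 and 1489, and 2 higher and 3 lower of the 10 clock genes, against 1 and 6. Leaving out a library changed the sign of uncalled differences: for stretch with control siRNA, Cry1 ranged from -0.007 to 0.039 and Per1 from -0.03 to 0.20; in unstretched cells, Per1 from -0.115 to 0.038, Dbp from -0.245 to 0.03, Per3 from -0.01 to 0.13 and Noct from -0.19 to 0.10; and for stretch with Wnt5a siRNA, Clock from -0.03 to 0.033 and Dbp from -0.246 to 0.029. With the replicate block, 7, 6, 2, 3 and 6 of the 10 were called (stretch with control siRNA, Wnt5a siRNA under stretch and unstretched, stretch with Wnt5a siRNA, interaction): Per2 was called for stretch with control siRNA (adjusted p = 0.0408) and Bhlhe40 in unstretched cells (0.04), and under stretch Arntl (0.0621) and Cry1 (0.068) were lost and Per3 (0.0349) gained. The block changed no call of the 10 for stretch with Wnt5a siRNA. In each other comparison of groups, at least 1 same-numbered pair of libraries correlated under 0.1. These correlations do not settle whether the numbers pair the samples, and the labels do not say. FPKM without counts give no interval for a single library, and Noct, below 3.3 FPKM outside the stretched control group, is the least precisely measured of the 10.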
